A study of Mus musculus with 36 samples.

Results

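The change in RNA levels between 240 and 360 min of lipopolysaccharide (LPS) was measured in bone marrow-derived macrophages carrying Tnip2[D310N], by comparing the 3 D310N libraries of 360 min with the 3 D310N libraries of 240 min. These 6 libraries were chosen by their labels, out of 36 in the series. The cells were cultured from mouse bone marrow for 7 days with L929 supernatant, a source of the macrophage growth factor M-CSF, and LPS was given at 100 ng/ml. The other libraries were D310N cells before LPS and at 30, 60 and 120 min, and wild-type (WT) cells at the same 6 times, with 3 libraries in each of the 12 groups. The age and sex of the mice and the way the allele was made are not given in the sources used here. Whether the 3 libraries of a group came from separate mice is not given either, so the p-values measure only the spread between libraries. That spread was pooled over all 36 libraries and is not that of the 6 D310N libraries alone. The sample titles write the allele as D310N and the table header as D309N; D310N is used here.

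LPS is sensed by Toll-like receptor 4, whose adaptors MyD88 and TRIF switch on NF-kB, the MAP kinases and interferon regulatory factors. The first wave of transcripts is followed by a later phase in which autocrine interferon beta and IL-10, RNA-decay proteins and negative regulators reshape the profile, and in which proliferation of macrophages is held back. Tnip2 codes for ABIN-2, a ubiquitin-binding partner of the kinase TPL-2 (gene Map3k8) and of NF-kB1 p105 (Nfkb1), and the altered residue belongs to its ubiquitin-binding region. The step from 240 to 360 min covers the last interval that was sampled.

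Values are the deposited log2 normalised values, differences are 360 min minus 240 min on that scale with the standard error (SE), and adjusted p-values come from limma with Benjamini-Hochberg adjustment over the 11656 genes that reached 10 on the linear scale in at least 3 libraries. An adjusted p under 0.05 made a call. Read depth is unknown because the table holds no counts. Macrophage markers were high in all 6 libraries: Lyz2, the myeloid lysozyme, had means of 16.88 at 240 min and 16.90 at 360 min, and Adgre1, which codes for F4/80, had 15.46 and 15.83. Of the 9 tested, 2 were called higher, Adgre1 (0.37) and Fcgr1 (0.45), and 1 lower, Csf1r (-0.25, adjusted p = 0.000417). Over all tested genes 18.6% were called higher and 20.3% lower. The summed linear level of the 9 macrophage markers ranged from 255100 to 274400 at 240 min and from 268400 to 290300 at 360 min. The same sum over the 9 dendritic cell markers in the table ranged from 119.9 to 130 at 240 min and from 163.1 to 199 at 360 min; of the 5 that were tested Clec9a (1.601 ± 0.27, adjusted p = 2.67e-05) and Btla (1.02 ± 0.26, adjusted p = 0.0025) rose and Zbtb46 (-0.66 ± 0.18, adjusted p = 0.00359) fell. The call of Btla was lost when only the 12 libraries of 240 and 360 min were fitted, and the part of these low levels in any other result was not tested. No marker was called among the 3 tested for neutrophils, 2 for T and NK cells, 1 for B cells, 2 for fibroblasts and 2 for erythroid, megakaryocyte and mast cells. The summed level for T and NK cells was 453.8 to 495 at 240 min and 379.9 to 400.4 at 360 min. For neutrophils it was 262.8 to 278, then 225.6 to 253.4. For erythroid, megakaryocyte and mast cells it was 1173 to 1364, then 1064 to 1273. That last sum overlapped between the times, as did those for B cells and fibroblasts. In bulk RNA, fewer cells of a type and less RNA per cell cannot be told apart.

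The step touched many genes, most of them by small amounts. Of 11656 genes 4539 (38.9%) were called, 2173 (18.6%) higher and 2366 (20.3%) lower at 360 min, and the median size of a called difference was 0.317. Differences over 1 were reached by 77 rising and 49 falling genes. The median difference over all tested genes was -0.01. The libraries of 360 min did not overlap those of 240 min for 5862 genes (50.3%), 2854 (24.5%) higher and 3008 (25.8%) lower, and 4334 genes (37.2%) were both called and free of overlap.

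**Figure D1:**
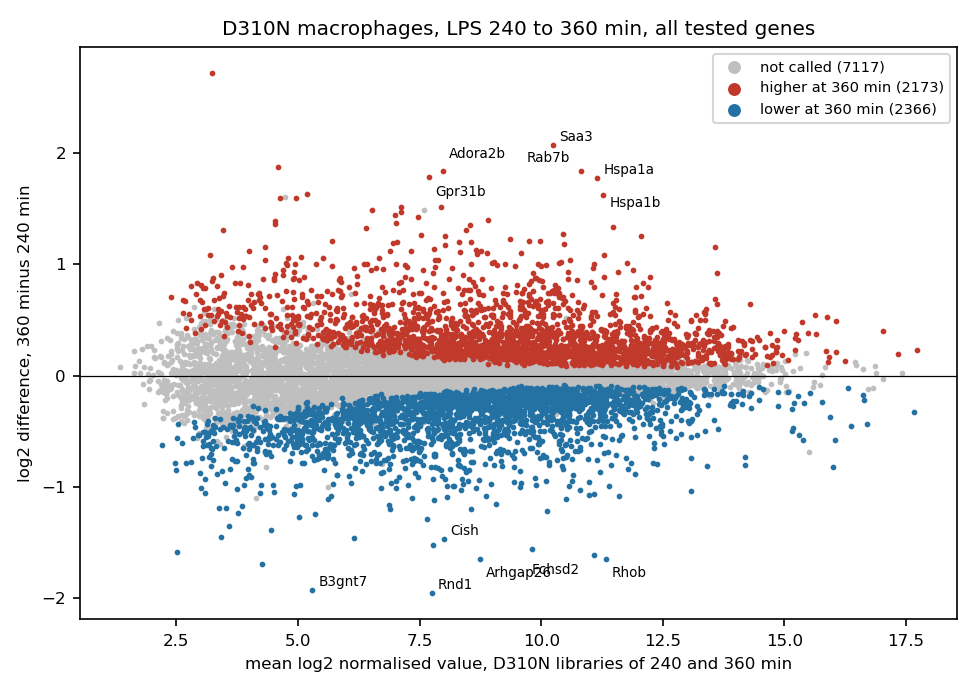
Log2 difference in D310N macrophages (360 minus 240 min, y axis) against the mean log2 normalised value of the 6 libraries (x axis), with 1 point per tested gene. Red points are the 2173 genes called higher, blue points the 2366 called lower, and grey points were not called; the named genes at the edges are among the 10 largest rises and 10 largest falls.

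The largest rises were in Saa3, Rab7b, Adora2b, Gpr31b, Hspa1a, Dmtn, Hspa1b, Hspa1l, Trib1 and Tfeb, taken among called genes whose libraries did not overlap and whose higher mean was at least 50 on the linear scale. Lack of overlap was thus a condition for naming these genes and the largest falls below, and is not a further result. Saa3 (chromosome 7, 46711998 to 46715700), an acute-phase serum amyloid made by activated macrophages, had log2 values of 9.04, 9.25 and 9.30 at 240 min, then 11.31, 11.27 and 11.22 at 360 min. Every library of 360 min lay above every library of 240 min (2.07 ± 0.34, adjusted p = 1.75e-05). Rab7b (chromosome 1, 131688695 to 131715439), a small GTPase of late endosomes, had 9.85, 9.91 and 9.90 at 240 min, then 11.74, 11.66 and 11.79 at 360 min. The replicates of each time lay close together beside the gap between the times (1.84 ± 0.22, adjusted p = 3.82e-07). Adora2b (chromosome 11, 62248984 to 62266453), the low-affinity adenosine receptor, had 7.10, 7.06 and 7.03 at 240 min, then 8.88, 8.82 and 9.01 at 360 min. It went from a low to a moderate level with no overlap (1.84 ± 0.23, adjusted p = 4.81e-07). Gpr31b, a G protein-coupled receptor, rose from 6.74, 6.93 and 6.71 to 8.56, 8.58 and 8.605 (1.79 ± 0.23, adjusted p = 1.01e-06).

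Trib1 (chromosome 15, 59648350 to 59657099), a pseudokinase that directs C/EBP-alpha to degradation, had 7.33, 7.13 and 7.09 at 240 min, then 8.78, 8.596 and 8.72 at 360 min. All 3 later libraries were above all 3 earlier ones (1.52 ± 0.12, adjusted p = 1.45e-09), after a mean of 10.40 at 30 min and 7.88 at 120 min, so the step was a second rise after an early peak. Tfeb (chromosome 17, 47737030 to 47792419), a transcription factor of lysosome genes, had 6.29, 6.49 and 6.31 at 240 min, then 7.85, 7.84 and 7.95 at 360 min. Its mean had fallen from 9.10 before LPS to 6.36 at 240 min and was 7.88 at 360 min (1.51 ± 0.20, adjusted p = 1.01e-06), a partial return. Dmtn, the actin-bundling protein dematin, went from 4.53, 4.31 and 4.26 to 5.91, 6.03 and 6.07, a low level throughout (1.63 ± 0.24, adjusted p = 4.01e-06).

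3 of these 10 genes belong to the HSP70 chaperone family and lie next to each other on chromosome 17. Hspa1a (chromosome 17, 34969190 to 34972156) had 10.10, 10.53 and 10.17 at 240 min, then 11.97, 12.29 and 11.87 at 360 min. Its lowest library of 360 min was above its highest of 240 min (1.78 ± 0.21, adjusted p = 2.22e-07). Hspa1b (chromosome 17, 34956436 to 34959238) had 10.32, 10.67 and 10.40 at 240 min, then 12.03, 12.31 and 11.94 at 360 min, with the same order of libraries as Hspa1a (1.63 ± 0.18, adjusted p = 1.62e-07). Hspa1l (chromosome 17, 34972703 to 34979285) was low, with 3.64, 4.52 and 4.31 at 240 min, then 5.68, 5.86 and 5.73 at 360 min. Its 240 min libraries were more spread out than its 360 min libraries and did not overlap them (1.601 ± 0.14, adjusted p = 9.19e-09). Hspa1a and Hspa1b are near-identical copies, so reads may have been split between them and their values are uncertain one by one. Their RefSeq promoters (GRCm38.p6, 250 bases before to 50 after the start) are shown because they carry the same heat shock element, the site of heat shock factors; capitals mark the match GAANNTTC, a motif chosen after the values were seen. The Hspa1a window is chr17:34972107-34972406, minus strand, and the Hspa1b window is chr17:34959189-34959488, minus strand.
Hspa1a: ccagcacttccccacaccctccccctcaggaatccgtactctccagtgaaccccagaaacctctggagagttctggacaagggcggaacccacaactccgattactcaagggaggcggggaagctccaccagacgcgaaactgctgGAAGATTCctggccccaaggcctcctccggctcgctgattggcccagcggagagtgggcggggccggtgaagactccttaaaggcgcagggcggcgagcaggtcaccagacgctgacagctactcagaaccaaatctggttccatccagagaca
Hspa1b: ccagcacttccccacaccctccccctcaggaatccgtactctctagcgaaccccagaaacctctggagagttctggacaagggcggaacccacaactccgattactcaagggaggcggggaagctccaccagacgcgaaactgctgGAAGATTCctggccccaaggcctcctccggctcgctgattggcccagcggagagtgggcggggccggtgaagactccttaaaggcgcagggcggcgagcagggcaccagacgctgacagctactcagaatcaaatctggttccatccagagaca
The windows were identical at 296 of 300 bases (98.7%), and the match began 104 bases before the start in both. GAANNTTC, which reads the same on both strands, was found in 7.95% of the 27025 RefSeq promoters and in 5.65% of those of tested genes. It was in 5.81% of promoters of all genes that rose in the step and in 4.44% of those of all genes that fell. A match describes the letters and is not a measured binding site.

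Rnd1, B3gnt7, Rhob, Arhgap26, Fchsd2, Ankrd44, Gprc5c, Cish, Unc5b and Zfp961 fell most under the same rule. Rnd1 (chromosome 15, 98663421 to 98677461), an atypical small GTPase that loosens the actin cytoskeleton, had 8.74, 8.62 and 8.82 at 240 min, then 6.64, 6.81 and 6.85 at 360 min. Its highest library of 360 min was far below its lowest of 240 min (-1.96 ± 0.18, adjusted p = 1.05e-08). B3gnt7 (chromosome 1, 86302832 to 86307305), a glycosyltransferase, had 6.15, 6.55 and 6.06 at 240 min, then 4.40, 4.52 and 4.07 at 360 min. It was low at both times and lower in every library of 360 min (-1.93 ± 0.20, adjusted p = 6.61e-08). Rhob (chromosome 12, 8497661 to 8500009), an endosomal small GTPase, had 12.13, 12.20 and 12.11 at 240 min, then 10.47, 10.58 and 10.45 at 360 min. It came down from a mean of 13.05 at 120 min, and the step took it below every library of 240 min (-1.65 ± 0.20, adjusted p = 3.23e-07). Arhgap26, a GTPase-activating protein, went from 9.56, 9.61 and 9.50 to 7.81, 8.10 and 7.82 (-1.65 ± 0.18, adjusted p = 1.38e-07).

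Fchsd2 (chromosome 7, 101092863 to 101284405), a membrane-bending adaptor of endocytosis, had 11.93, 11.93 and 11.86 at 240 min, then 10.25, 10.41 and 10.20 at 360 min. The groups did not overlap (-1.62 ± 0.17, adjusted p = 8.4e-08). Cish (chromosome 9, 107296026 to 107302784), a feedback inhibitor of STAT5 signalling, had 8.75, 8.64 and 8.80 at 240 min, then 7.31, 7.13 and 7.34 at 360 min. It was lower in each library of 360 min (-1.47 ± 0.17, adjusted p = 2.87e-07). Ankrd44 (-1.56), Gprc5c (-1.52), the netrin receptor gene Unc5b (-1.46) and the zinc finger gene Zfp961 (-1.29) fell as well, with adjusted p from 7.33e-08 to 3.31e-06.

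**Figure D2:**
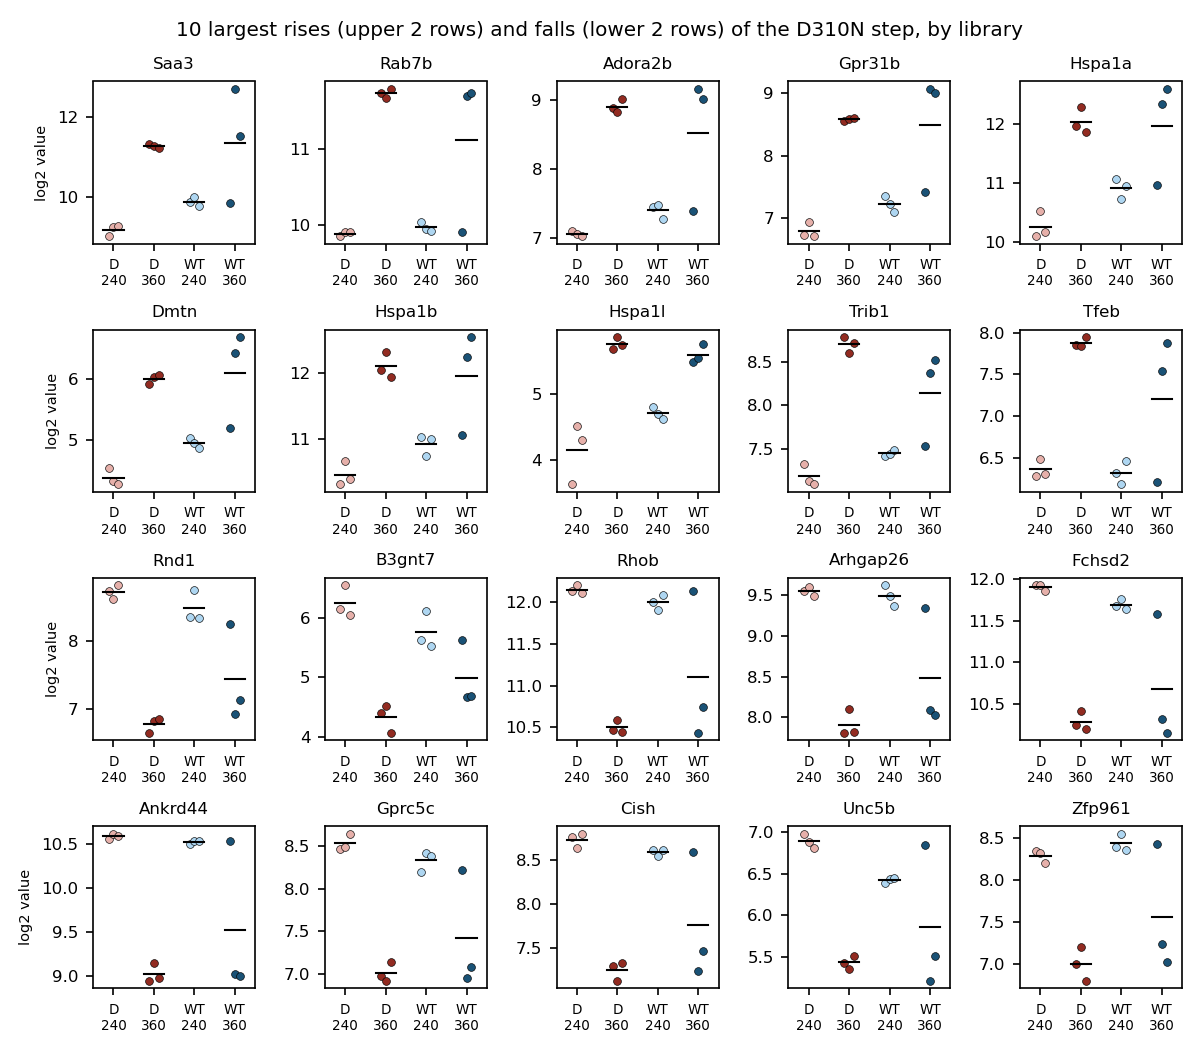
Log2 normalised value of each library (points) and group mean (bars) for the 10 largest rises (upper rows) and 10 largest falls (lower rows) of the D310N step; D is D310N, the columns are 240 and 360 min in each genotype, and the 3 points of a column are replicates 1 to 3 from left to right. The D310N libraries of 360 min lie apart from those of 240 min in all 20 panels, as the naming rule required. WT 360 min replicate 1, which the rule did not use, sits nearer the WT libraries of 240 min for 19 of the 20 genes.

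Mitosis genes fell together. Of 32 tested genes of G2/M and mitosis 28 fell and 1 rose, with a median difference of -0.51 beside -0.01 over all tested genes, of which 20.3% fell and 18.6% rose. Mki67 (chromosome 7, 135689784 to 135716361), the proliferation marker Ki-67, had 10.49, 10.57 and 10.61 at 240 min, then 9.63, 9.96 and 9.67 at 360 min, so every library of 360 min was lower (-0.80 ± 0.12, adjusted p = 8.7e-06). Bub1b and Bub1, kinases of the spindle checkpoint, fell by 0.77 and 0.77, and Kif11, the spindle motor Eg5, fell by 0.76 on the log2 scale, with adjusted p of 2.12e-05, 0.000368 and 1.42e-05. Top2a (-0.74), Plk1 (-0.72) and Cdk1 (-0.63) were among the others that fell. The member that rose was Tpx2 (0.70 ± 0.10, adjusted p = 4.71e-06), a spindle assembly factor that activates Aurora A, named here after its value was seen. Of 34 genes of G1/S and DNA replication 20 fell and 1 rose (median -0.32). Rrm2, a subunit of ribonucleotide reductase, Ccne1 (cyclin E1), Mcm2 of the replicative helicase and Lig1 (DNA ligase 1) fell by 0.87, 0.85, 0.79 and 0.66. Mcm2 had 7.75, 7.67 and 7.81 at 240 min, then 6.88, 6.91 and 7.07 at 360 min, no overlap, and its mean before LPS was 9.52 (-0.79 ± 0.08, adjusted p = 3.04e-08). The D310N mean of Mcm2 was lower at each later time from 60 min on, so the step extended a fall already under way.

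Promoters of late cell cycle genes typically pair a CCAAT box with a cell cycle homology region (CHR), through which the DREAM complex and B-MYB act. The RefSeq promoters (GRCm38.p6) of the 4 G2/M genes with the largest falls are printed to show where matches to these motifs lie. TTTGAA (CHR) and CCAAT are in capitals, or TTCAAA and ATTGG where the match is on the other strand. Their windows are chr7:135716330-135716629, minus strand for Mki67, chr2:118597961-118598260, plus strand for Bub1b, chr2:127831810-127832109, minus strand for Bub1 and chr19:37376132-37376431, plus strand for Kif11.
Mki67: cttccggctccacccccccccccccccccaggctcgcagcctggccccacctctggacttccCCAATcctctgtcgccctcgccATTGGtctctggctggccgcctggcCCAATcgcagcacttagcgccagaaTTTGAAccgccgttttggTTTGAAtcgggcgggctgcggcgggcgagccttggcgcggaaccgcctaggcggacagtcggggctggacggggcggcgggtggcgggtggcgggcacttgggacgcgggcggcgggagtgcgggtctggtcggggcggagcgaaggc
Bub1b: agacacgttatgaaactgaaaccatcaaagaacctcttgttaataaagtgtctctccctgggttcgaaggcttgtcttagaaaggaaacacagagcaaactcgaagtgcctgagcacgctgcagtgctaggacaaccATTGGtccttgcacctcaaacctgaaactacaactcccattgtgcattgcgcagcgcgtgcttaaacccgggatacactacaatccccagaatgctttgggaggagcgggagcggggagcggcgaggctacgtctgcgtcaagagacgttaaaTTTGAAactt
Bub1: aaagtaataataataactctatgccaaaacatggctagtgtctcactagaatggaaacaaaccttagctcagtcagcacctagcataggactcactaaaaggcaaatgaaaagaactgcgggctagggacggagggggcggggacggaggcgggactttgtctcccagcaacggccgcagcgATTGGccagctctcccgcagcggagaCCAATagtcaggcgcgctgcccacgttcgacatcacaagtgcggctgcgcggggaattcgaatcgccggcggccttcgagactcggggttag
Kif11: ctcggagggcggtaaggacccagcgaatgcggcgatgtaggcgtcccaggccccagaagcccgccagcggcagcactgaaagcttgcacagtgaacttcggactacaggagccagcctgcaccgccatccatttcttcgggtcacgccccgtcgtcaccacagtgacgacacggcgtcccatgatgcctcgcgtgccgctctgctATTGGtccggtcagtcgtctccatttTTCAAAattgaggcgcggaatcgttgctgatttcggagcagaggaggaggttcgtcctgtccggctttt
Mki67 held 2 CHR matches and 3 CCAAT matches, while Bub1 held 2 CCAAT matches and no TTTGAA in this window. The TTTGAA match of Bub1b began at position 41, after the start, and its CCAAT match 113 bases before the start. A promoter was found for 27 of the 32 tested G2/M genes. TTTGAA, on either strand, was in 19 of the 27 (70.4%), against 18.1% of the 27025 promoters and 11.8% of those of tested genes, and CCAAT was in 21 (77.8%), against 37.9% and 39.2%. The 2 motifs do not overlap in letters, and these shares describe the list, whose members were picked for their role in mitosis. Among all genes that fell in the step TTTGAA was in 12.5%, and among all that rose in 9.97%.

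Cytokine genes moved in both directions. In this list and those that follow, the up to 4 called members with the largest change were named by rule, and any further member was added after its value was seen. The counts of each list stand beside 18.6% of all tested genes that rose and 20.3% that fell. Of 21 tested early inflammatory cytokines 4 rose and 7 fell. Il10 (chromosome 1, 131019845 to 131024974), the main anti-inflammatory cytokine of macrophages, had 8.14, 8.02 and 8.24 at 240 min, then 9.12, 9.14 and 9.42 at 360 min. Each library of 360 min exceeded those of 240 min (1.09 ± 0.17, adjusted p = 9.79e-06). Il1rn, which codes for the IL-1 receptor antagonist, went from 13.18, 13.03 and 13.27 to 14.11, 13.94 and 14.19 (0.92 ± 0.16, adjusted p = 3.11e-05), and Il18 (0.59) and Il1b (0.23) also rose. Tnfsf15, which codes for the TNF-family cytokine TL1A, had 12.23, 11.995 and 12.24 at 240 min, then 11.03, 11.05 and 11.12 at 360 min. It was lower in all 3 libraries of 360 min (-1.09 ± 0.18, adjusted p = 2.06e-05). Il23a, the p19 subunit of IL-23, went from 6.66, 6.19 and 6.84 to 5.73, 5.18 and 5.88 (-0.97 ± 0.20, adjusted p = 0.000373), with replicate 2 the lowest library at both times. Tnf (-0.47), Il27 (-0.61), Lif (-0.66), Csf1 (-0.37) and Il15 (-0.40) fell, whereas Il6 had a difference of -0.01 and Il12b of 0.07, neither called.

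Among 19 chemokines 5 rose and 6 fell. Cxcl1 (chromosome 5, 90891241 to 90893115) and Cxcl3, neutrophil attractants acting on CXCR2, fell: Cxcl1 had 10.89, 10.24 and 10.61 at 240 min, then 9.82, 9.45 and 9.63 at 360 min (-0.95 ± 0.24, adjusted p = 0.00239), and Cxcl3 had a difference of -0.74. Ccl4, Cxcl10, Cxcl11 and Cx3cl1 also fell (-0.50, -0.45, -0.25 and -0.32). Ccl12 (0.48), Ccl5 (0.40), Cxcl16 (0.30), Ccl22 (0.24) and Ccl7 (0.19) rose. Icam1, an adhesion molecule for leukocyte integrins, fell by 0.58, and the inducible nitric oxide synthase gene Nos2 rose by 0.50.

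The genes of the TNIP2 pathway changed little. Tnip2 itself (chromosome 5, 34496087 to 34513991) had 9.37, 9.34 and 9.30 at 240 min, then 9.05, 9.11 and 9.07 at 360 min. All 3 libraries of 360 min were below all 3 of 240 min, by a small amount (-0.26 ± 0.06, adjusted p = 0.00152). Tnip1, its homologue ABIN-1, rose by 0.31, and Tnfaip3 (the deubiquitinase A20, which ABIN proteins bind) and Map3k8 fell by 0.22 and 0.24. Nfkb1 had 13.53, 13.57 and 13.58 at 240 min, then 13.55, 13.58 and 13.58 at 360 min, with the times overlapping (0.01 ± 0.04, adjusted p = 0.842). Over the 24 tested NF-kB subunits, inhibitors and feedback regulators 5 rose and 10 fell, with a median of -0.07. Bcl3, a nuclear IkB protein that binds p50 and p52, had the largest fall of the list, with 11.38, 11.53 and 11.45 at 240 min, then 10.52, 10.44 and 10.54 at 360 min (-0.96 ± 0.08, adjusted p = 1.46e-09). Tnfaip2 fell by 0.82, Rel and Rela, which code for NF-kB subunits, by 0.38 and 0.36, and Irak3, the inhibitory kinase IRAK-M, rose (0.75 ± 0.09, adjusted p = 3.47e-07).

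Immediate early genes, many of which answer to the ERK pathway downstream of TPL-2, moved both ways: of 30 tested, 11 rose and 6 fell (median 0.10), beside 18.6% and 20.3% of all tested genes, so that the falls were close to the background share. Dusp1 (chromosome 17, 26505590 to 26562128), the phosphatase MKP-1 that switches off p38 and JNK, had 11.37, 11.48 and 11.44 at 240 min, then 12.64, 12.62 and 12.78 at 360 min. The libraries did not overlap (1.26 ± 0.19, adjusted p = 4.98e-06). Ier2 (1.1002), Nr4a1 (0.86) and Myc (0.84) rose as well, and the related nuclear receptor gene Nr4a3 fell, from 8.79, 8.88 and 8.92 to 7.76, 7.89 and 7.86 (-1.03 ± 0.17, adjusted p = 1.56e-05). Egr1 (-0.07) was not called. Zfp36, which codes for the RNA-decay protein tristetraprolin, rose by 0.55, and of the 17 tested mRNA decay regulators 3 rose (Zfp36, Zfp36l1 and Zc3h12a) and 1 fell (Dcp2), a share of rises near the 18.6% of all tested genes.

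Interferon beta fell, and its regulators and targets moved both ways. Ifnb1 (chromosome 4, 88522025 to 88522774), interferon beta itself, had 8.02, 7.99 and 7.93 at 240 min, then 7.16, 7.198 and 7.16 at 360 min. All 3 later libraries were lower (-0.81 ± 0.22, adjusted p = 0.0036), a call that was lost, like that of Cxcl3, when only the 12 libraries of 240 and 360 min were fitted. Irf1 and Irf8, interferon regulatory factors, fell by 0.82 and 0.73, while Irf7 (0.65) and Ticam1 (0.69), which codes for TRIF, rose. Of 48 type I interferon-stimulated genes 21 rose and 14 fell, and their median of 0.06 became -0.0082 under quantile normalisation. Ifi44 (0.79), Phf11b (0.54) and Bst2 (0.50) were among those that rose, and Ifit1 (-0.54), Cmpk2 (-0.43) and Rsad2 (-0.32) among those that fell. The interferon-stimulated response element core was read as GAAA, any 2 bases and GAAA on either strand. It was in 17 of 35 promoters matched for the list (48.6%), against 3.49% of the 27025 promoters and 3.29% of those of tested genes. This share describes the list, whose members were picked as interferon-stimulated. The core was in 4.05% of promoters of all genes that rose in the step and in 3.35% of those of all genes that fell. In the list of interferon-gamma type GTPases and antigen presentation 12 of 28 rose and 6 fell. The GTPase gene Gbp2 had the largest rise of the list (0.38), and proteasome and processing genes such as Psmb10 (0.34) and Psme1 (0.32) also rose. The immunity-related GTPases Irgm2 (-0.56) and Igtp (-0.43) and the feedback inhibitor Socs1 (-0.77) fell.

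Genes of cholesterol handling mostly rose where they were called. Of 32 genes of sterol and fatty acid synthesis 14 rose and 3 fell (median 0.11). The SD of that median between replicates, both times combined, was 0.13. Msmo1 (0.60), Sc5d (0.59), Hsd17b7 (0.55) and Lss (0.52), all enzymes of the later part of cholesterol synthesis, were among those that rose. Elovl6 (-0.58) was among those that fell. Of 15 LXR targets and genes of cholesterol efflux 8 rose and 1 fell (median 0.18). Nr1h3 (chromosome 2, 91184061 to 91202834), which codes for the oxysterol receptor LXR-alpha, had 9.51, 9.34 and 9.53 at 240 min, then 10.44, 10.16 and 10.42 at 360 min, again without overlap (0.88 ± 0.10, adjusted p = 1.62e-07). The efflux pumps Abca1 and Abcg1 rose by 0.48 and 0.50, and Apoe had -0.14, not called. Nr1d1, which codes for the haem-binding clock repressor REV-ERB-alpha, went from 3.58, 4.14 and 3.51 to 4.90, 5.09 and 4.71 (1.15 ± 0.21, adjusted p = 7.81e-05); in the clock list 6 of 16 rose, among them Per1 (0.97) and Bhlhe41 (0.64), and Clock (-0.36) fell.

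Stress genes were split. Of 20 genes of the NRF2 and haem response 8 rose and 3 fell. Hmox1 (chromosome 8, 75093621 to 75100589), haem oxygenase 1, had 10.62, 10.44 and 10.65 at 240 min, then 11.73, 11.42 and 11.59 at 360 min. The libraries of the 2 times were apart (1.01 ± 0.18, adjusted p = 5.48e-05). Osgin1 (1.01) and Nfe2l2 (0.71), which codes for NRF2, also rose, while Txnrd1 (-0.38) fell, and Nqo1 (-0.23) and Gclm (-0.03) were not called. Among 22 genes of ATF4 and the integrated stress response 6 rose and 9 fell (median -0.24): Sesn2, Ddit4 and Ppp1r15a fell by 0.83, 0.69 and 0.58, and Atf4 itself (0.40) and Ddit3 (0.49), which codes for CHOP, rose. Herpud1, a component of ER-associated degradation, had 8.07, 8.10 and 8.08 at 240 min, then 9.24, 9.15 and 9.26 at 360 min, a rise in each library (1.13 ± 0.13, adjusted p = 2.34e-07), in a list of ER chaperone genes of which 4 of 23 rose and 5 fell, close to the 18.6% and 20.3% of all tested genes.

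Ribosome biogenesis genes fell where they were called. None of 25 tested ribosome biogenesis genes rose and 11 fell (median -0.17), beside 20.3% of all tested genes that fell, among them Dkc1 (-0.64) and Gar1 (-0.49), subunits of the box H/ACA particle. Of 32 cytosolic ribosomal protein genes 4 fell and 0 rose, a smaller share of falls than the 20.3% of all tested genes, and of 20 aminoacyl-tRNA synthetase genes 8 fell and 2 rose. Of 28 oxidative phosphorylation subunits 6 rose and 0 fell (median 0.05), where 20.3% of all tested genes fell. In glycolysis 4 of 20 rose and 3 fell: Hk2, hexokinase 2, fell from 11.56, 11.49 and 11.51 to 10.37, 10.55 and 10.41 (-1.08 ± 0.12, adjusted p = 1.39e-07), and Hk3, the myeloid hexokinase, rose by 0.55.

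Genes of sensing, identity and cell death also moved. P2ry6, the UDP receptor, rose from 10.47, 10.64 and 10.64 to 11.62, 11.44 and 11.59 (0.97 ± 0.14, adjusted p = 4.02e-06), and of 14 histamine, adenosine and nucleotide receptor genes 7 rose, Adora2b included, and 3 fell (median 0.28), among them the ADP receptor P2ry1 (-0.70) and Adora2a (-0.41). Of 30 genes of Toll-like receptors, adaptors and kinases 10 rose and 6 fell; Tlr9, the receptor for CpG DNA, had 10.03, 10.16 and 10.09 at 240 min, then 11.04, 11.03 and 11.01 at 360 min, each later library higher (0.93 ± 0.13, adjusted p = 1.49e-06), and Ripk1 (-0.48) and Ripk2 (-0.40) fell. The transcription factor genes Cebpa (0.65) and Maf (0.65) rose and Irf8 fell within 30 macrophage identity genes, of which 9 rose and 6 fell. In the inflammasome list 8 of 16 rose, with Mefv (0.62), Il18 and the IL-18 inhibitor gene Il18bp (0.50), and 3 fell, with Nlrp3 (-0.17). Of 23 Bcl2 family and cell death genes 11 rose and 5 fell: Pmaip1, which codes for the BH3-only protein NOXA, rose by 1.01 and Bcl2 by 0.56, and Bbc3, which codes for PUMA, fell by 0.66. Of 32 lysosomal hydrolase and V-ATPase genes 6 rose and 6 fell, close to the background shares, with Sqstm1 (-0.80) and Tfec (-0.74) falling and Atp6v1b2 (0.49) rising.

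Secreted and surface genes of coagulation and matrix gave large single changes. Thbs1 (chromosome 2, 118111876 to 118127133), thrombospondin 1, had 8.78, 8.70 and 8.76 at 240 min, then 10.02, 9.93 and 9.97 at 360 min. It was higher in every library of 360 min (1.23 ± 0.16, adjusted p = 1.07e-06). F3 (chromosome 3, 121723537 to 121735048), tissue factor, had 7.60, 7.34 and 7.56 at 240 min, then 6.54, 6.12 and 6.23 at 360 min. It was lower in every one (-1.20 ± 0.20, adjusted p = 2.29e-05). The protease gene Adamts4 fell by 1.00, and over 21 matrix and remodelling genes 7 rose and 4 fell. In metal handling 6 of 16 rose and 7 fell: Lcn2 (0.79), a siderophore-binding protein, and Cp (0.85), the ferroxidase ceruloplasmin, rose with Saa3, which was placed on the same list, and the zinc importer Slc39a14 fell by 0.81.

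**Figure D3:**
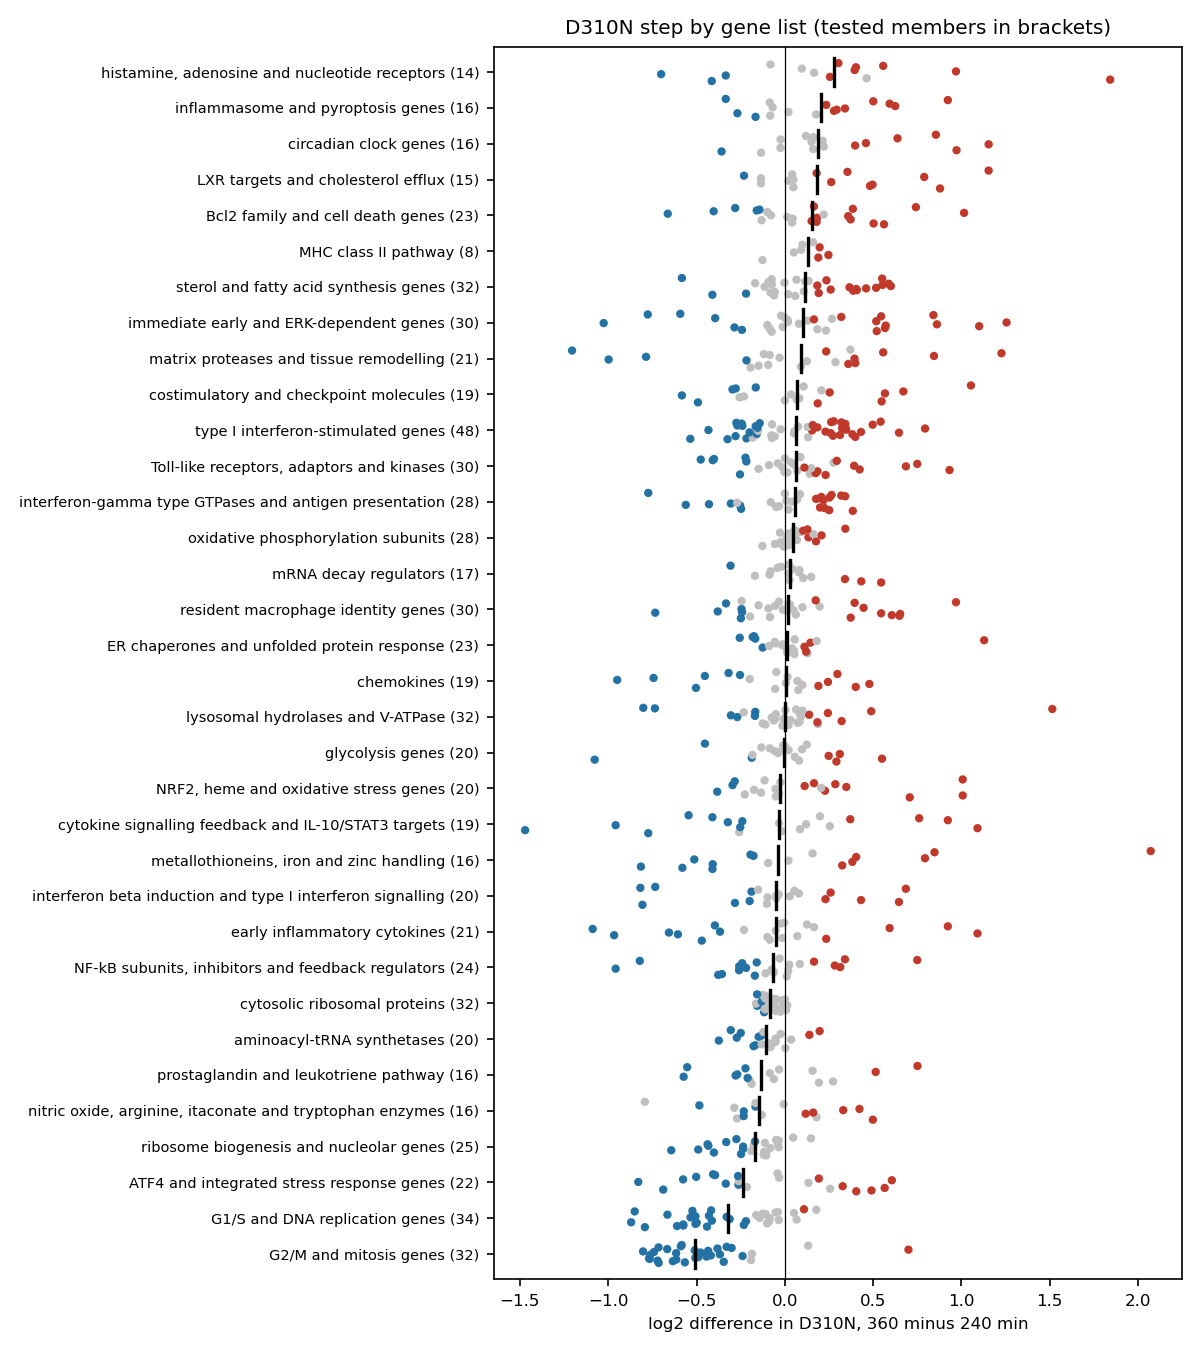
Log2 difference in D310N macrophages (360 minus 240 min, x axis) for each tested member (points) of each gene list (rows, number of tested members in brackets); red points were called higher, blue lower, grey not called, and black bars are list medians. The 2 cell cycle lists have the lowest medians, -0.51 and -0.32, and the histamine, adenosine and nucleotide receptor list the highest, 0.28.

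The same interval in WT cells addresses whether these changes differed with the allele. WT 360 min replicate 1 stood apart from its group, as seen over the 4539 genes called in D310N. It lay nearer to the WT mean of 240 min than to that of the other 2 WT libraries of 360 min for 3933 (86.6%). The same share was 12.8% and 11.3% for replicates 2 and 3, and 3.61% to 6.41% for the D310N libraries of 360 min. The median move of WT 360 min replicate 1 from the 240 min mean in the D310N direction was 0.0005, against 0.307 and 0.286 for replicates 2 and 3 and 0.312 to 0.316 in D310N. Its root-mean-square deviation from the group mean was 0.246, against 0.177 and 0.157 for the other WT libraries of 360 min and 0.0837 to 0.128 in the remaining 33. Why it differs was not tested. WT call counts and the WT steps of some genes are given with and without it. Step differences of single genes include it unless stated. With all libraries 3066 genes (26.3%) were called in WT, 1437 higher and 1629 lower; without that library 5139 (44.1%) were, 2484 higher and 2655 lower. WT 360 min replicate 2 and replicate 3 weighed the other way, with 1131 and 1074 genes called when either was left out.

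Most D310N changes were shared. Of the 4539 genes called in D310N 2373 (52.3%) were also called in WT, which is 77.4% of the WT calls, and 2367 of them moved the same way. Without WT 360 min replicate 1 there were 3442 shared calls (75.8% of the D310N and 67% of the WT calls), 3431 of them in the same direction. Across the 11656 genes the D310N and WT differences, which share no library, had Pearson's r of 0.766 with all libraries and 0.815 without that one, as a description, since genes are not independent replicates. The WT step of Saa3 was 1.46 with all libraries and 2.21 without replicate 1, for Tfeb 0.89 and 1.39, for Rhob -0.89 and -1.40, and for Rnd1 -1.05 and -1.46. Of the 32 G2/M genes 24 fell in WT with all libraries and 28 without replicate 1. The step of Il10 was 0.43 in WT with all libraries and 0.79 without replicate 1.

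**Figure D4:**
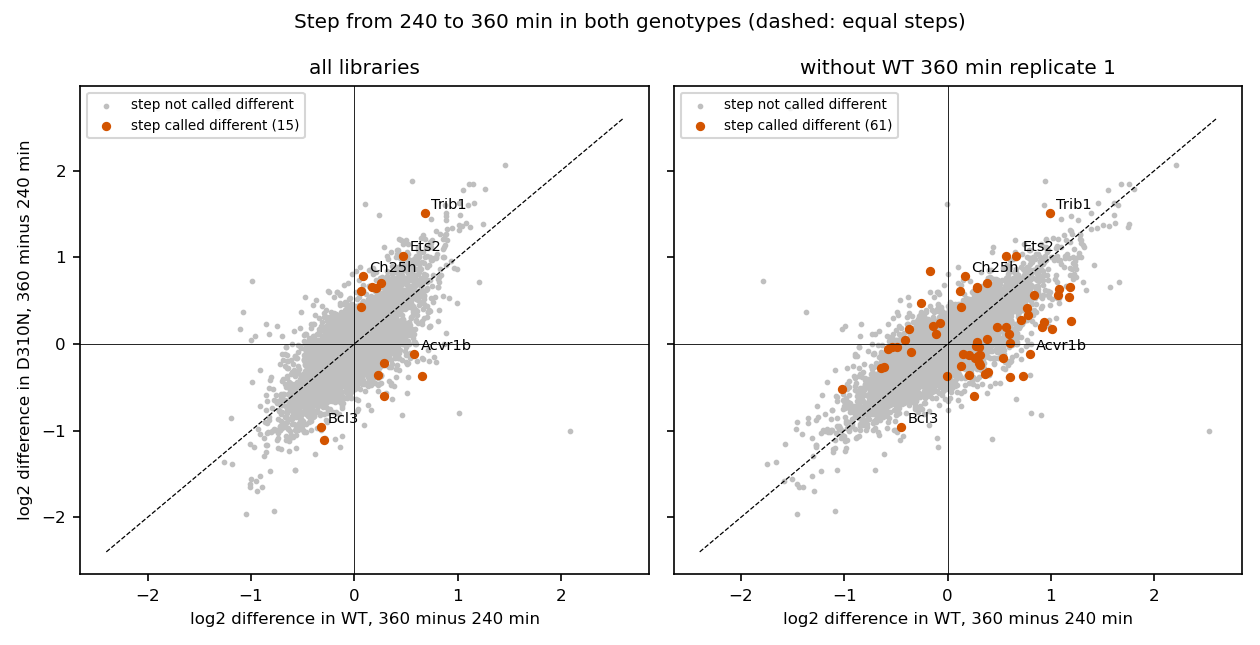
Log2 difference from 240 to 360 min in D310N (y axis) against WT (x axis), 1 point per tested gene, with all libraries on the left and without WT 360 min replicate 1 on the right; orange points are genes whose step was called different between the genotypes, and the dashed line marks equal steps. There are 15 orange points on the left and 61 on the right, and Pearson's r across genes is 0.766 on the left and 0.815 on the right.

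The step differed between the genotypes for 15 genes (0.129% of 11656), 8 (0.0686%) with a higher and 7 (0.0601%) with a lower step in D310N; 1223 genes had an unadjusted p under 0.05. Without WT 360 min replicate 1 it differed for 61 genes (0.523%), 23 (0.197%) higher and 38 (0.326%) lower, without replicate 2 for 212 and without replicate 3 for 116, and 14 of the 15 were among the 61. The count thus depended on which WT library of 360 min was used. Of the 11 of these genes that the naming rule covers, Ch25h, Nfe2l2, Bcl3 and Mib2 kept their call when each of the 12 libraries of 240 and 360 min was left out in turn, and they too lost it in the fit of the 12 libraries of 240 and 360 min, where 0 genes were called and 560 had an unadjusted p under 0.05. Ch25h (chromosome 19, 34473778 to 34475164), the enzyme that makes 25-hydroxycholesterol, had 9.97, 9.89 and 9.98 at 240 min, then 10.88, 10.56 and 10.76 at 360 min in D310N, and 10.62, 10.49 and 10.50 at 240 min, then 10.45, 10.73 and 10.68 at 360 min in WT. D310N began below all WT libraries and ended among them or above, and the step was larger in D310N by 0.70 ± 0.10, adjusted p = 0.00157. Nfe2l2 (chromosome 2, 75675513 to 75704641) had 11.56, 11.54 and 11.65 at 240 min, then 12.32, 12.26 and 12.29 at 360 min in D310N, and 11.96, 11.93 and 11.97 at 240 min, then 11.97, 12.36 and 12.31 at 360 min in WT. It too began lower in D310N (0.45 ± 0.08, adjusted p = 0.00473). Across 24 alternatives, leaving out WT 360 min replicate 1 among them, the step difference of Nfe2l2 ranged from 0.32 to 0.52.

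Bcl3 (chromosome 7, 19808462 to 19822770) had 11.37, 11.37 and 11.25 at 240 min, then 11.27, 11.01 and 10.76 at 360 min in WT, beside the D310N values given above. D310N was slightly higher at 240 min and lower than each WT library at 360 min (-0.64 ± 0.11, adjusted p = 0.00696). Across the same 24 alternatives the step difference of Bcl3 ranged from -0.76 to -0.42. Mib2 (chromosome 4, 155654677 to 155669198), a ubiquitin ligase of Notch signalling, had 7.75, 7.85 and 7.71 at 240 min, then 7.57, 7.46 and 7.62 at 360 min in D310N, and 7.42, 7.50 and 7.37 at 240 min, then 7.69, 7.71 and 7.77 at 360 min in WT. The step was -0.22 in D310N and 0.29 in WT (-0.51 ± 0.08, adjusted p = 0.00473). Trib1 (0.83 ± 0.18, adjusted p = 0.0434), Ets2 (0.55 ± 0.12, adjusted p = 0.0434), Inpp1 (0.54 ± 0.11, adjusted p = 0.0194) and Maf (0.48 ± 0.10, adjusted p = 0.0434) had larger steps in D310N. Rhbdf1 (-0.81 ± 0.17, adjusted p = 0.0434), Acvr1b (-0.70 ± 0.14, adjusted p = 0.0287) and Abi3 (-0.58 ± 0.11, adjusted p = 0.0113) had lower ones. Tnip2 fell in D310N and had 0.10 in WT, a difference of -0.36 ± 0.09, adjusted p = 0.0917, and -0.39 (adjusted p = 0.0374) without WT 360 min replicate 1.

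**Figure D5:**
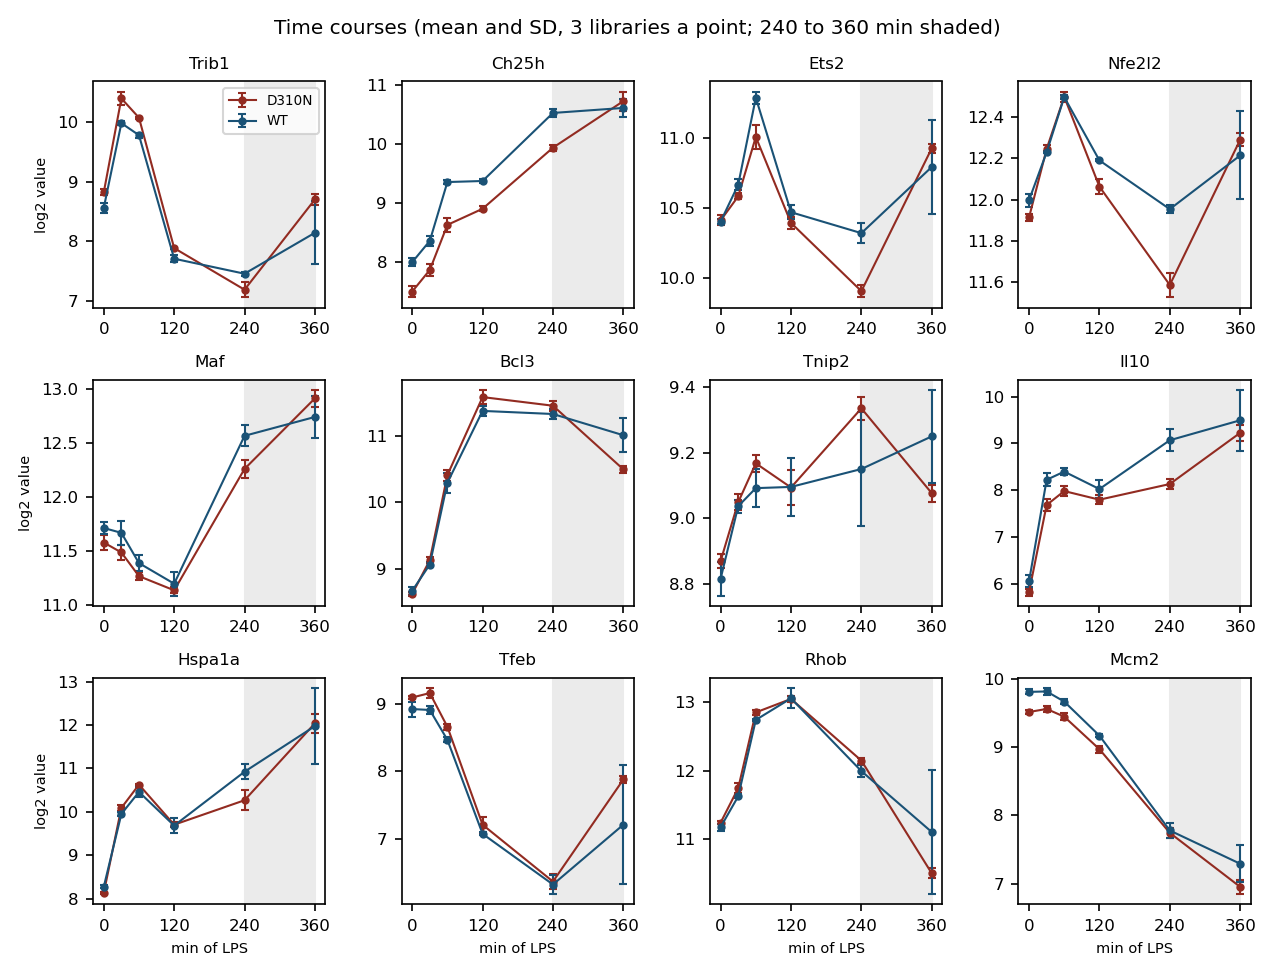
Log2 normalised value (mean and SD of 3 libraries) against minutes of LPS for 12 genes in D310N (red) and WT (blue), with the interval from 240 to 360 min shaded. Ch25h, Ets2, Nfe2l2 and Maf start the shaded interval with a lower mean in D310N and end it with a higher one, and Bcl3 starts slightly higher and ends lower. The WT points at 360 min include replicate 1, which stood apart. Without it the WT means of Nfe2l2 and Ets2 at 360 min lie slightly above those of D310N, so their crossing depends on that library.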

How the data were processed

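RNA of 36 libraries was sequenced with single-end reads of 75 bp. STAR 2.5.2a aligned the reads to mm10, RSEM 1.2.31 quantified genes and DESeq2 1.10.1 was used, per the submitters' processing notes. The deposited table holds log2 normalised values (-4.14 to 19.3, library medians 6.83 to 7.2) for 16439 genes; the log2 transformation is not given in the sources used here, and one that shrinks low values would make small levels differ less. Names turned into dates (23) were left out. The filter asked for a log2 value of 3.32 (10 when back-transformed) in 3 libraries. limma 3.58.1 (R 4.3.3) fitted 1 mean for each of the 12 groups, with an intensity trend and 24 residual degrees of freedom; tests were two-sided and called at an adjusted p under 0.05.

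Named genes were the 10 largest rises and falls without overlap between libraries and whose higher mean reached a linear value of 50, up to 4 members of each list, 5 pathway genes and the largest step differences between genotypes; some genes that this names are not reported here. The comparison, members and lists were chosen with earlier results of these data known. Positions are from GENCODE M21 (GRCm38); 11285 tested symbols were found. Whether reads were counted by strand, or shared reads resolved, is not given in the sources used here. On data simulated for the D310N step over 11656 genes, limma recovered 40%, 70%, 96% and 100% of 50 genes changed by 0.25, 0.5, 1 and 2, with 12 false calls among 11456. Far fewer genes were changed there than the 38.9% called in the data. The adjustment depends on that share, so these rates need not hold for the measured step. Alternatives changed the filter, pseudocount, scaling, empirical Bayes settings, library weights and the libraries fitted. The replicate numbers recur in each group. Between 240 and 360 min, same-numbered deviations correlated by 0.0064 to 0.192 in D310N and -0.0743 to 0.123 in WT. Different-numbered ones correlated by -0.192 to 0.178 in D310N and -0.112 to 0.126 in WT. The numbers were not taken to pair libraries, but these few correlations cannot exclude a pairing.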

Additional observations from a re-analysis of the deposited data

Results flagged for a closer look

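The step from 240 to 360 min was flagged for 11 of the named genes because a test of the difference between the genotypes passed (D310N minus WT, limma, adjusted over 11656 genes). It was more positive in D310N for Trib1 (0.829), Ch25h (0.704), Ets2 (0.548), Inpp1 (0.545), Maf (0.478) and Nfe2l2 (0.446), and more negative for Rhbdf1 (-0.814), Acvr1b (-0.698), Bcl3 (-0.638), Abi3 (-0.583) and Mib2 (-0.515). All 11 were called with WT 360 min replicate 1 included, and none was called when only the 12 libraries of 240 and 360 min were fitted. Trib1, a regulator of C/EBP-alpha, had WT values of 7.42, 7.44 and 7.49 at 240 min, then 7.54, 8.37 and 8.51 at 360 min, where replicate 1 is the lowest at 360 min, and its difference was 0.53 (adjusted p = 0.0022) without that library. The same value for Ets2, an ERK-responsive transcription factor, was 0.36 (adjusted p = 0.0049), and for Rhbdf1, which codes for the pseudoprotease iRhom1, -0.65 (adjusted p = 0.0565). The genotypes also stood apart at 240 min for Ets2, which had 9.86, 9.92 and 9.94 in D310N and 10.36, 10.24 and 10.36 in WT at that time, and the part of the starting level was not tested.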

How the results depend on the processing

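Of 159 named genes called in the D310N step, 131 were called under every alternative that gave a value for them (25 or 26 a gene), 14 lost the call only in the fit of the 12 libraries of 240 and 360 min, 14 lost it under at least 1 other alternative, and 0 changed direction. Leaving out 1 library was run for each of the 12 libraries of 240 and 360 min, not for the other 24. The D310N count then ranged from 3875 to 5047, the highest without WT 360 min replicate 1, whose spread entered the pooled estimate. It was 2945 (1441 higher, 1504 lower) in the fit of those 12 libraries, 4585 in a fit of the 6 D310N libraries of 240 and 360 min and 4805 in a fit of the 18 D310N libraries. The WT count was 5093 (2407 higher, 2686 lower) with library weights. In the fit of 12 libraries limma called 0 WT genes, 0 higher and 0 lower, with 3250 at an unadjusted p under 0.05. With 1 library left out the WT count ranged from 1074 to 5139 (444 to 2484 higher, 630 to 2655 lower), with the extremes without WT 360 min replicate 3 and without replicate 1. The step difference was called for 88 genes (41 higher, 47 lower) with library weights, for 0 (0 higher, 0 lower) in the fit of 12 libraries with 560 at an unadjusted p under 0.05, and for 11 (5 higher) without the intensity trend. It ranged from 7 to 212 genes (3 to 113 higher, 4 to 99 lower) when 1 library was left out; the count was 7 without WT 240 min replicate 3, 8 without D310N 360 min replicate 3, and 61, 212 and 116 without WT 360 min replicates 1, 2 and 3.

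With the replicate number as a block the D310N step had 4833 calls, the WT step 3439 and the step difference 42 (19 higher, 23 lower); the block is not taken as a pairing. Reversed values were the D310N step of Nfkb1, -0.0843 under quantile normalisation and -0.0037 without D310N 240 min replicate 1 (up to 0.0217 without replicate 3); the list medians of interferon-stimulated genes, -0.0082 under quantile normalisation, and of costimulatory molecules, -1e-04 without D310N 360 min replicate 1 (up to 0.1237 without replicate 3); and, for markers, the medians of T and NK cells, 0.0046 without a filter, and of fibroblasts, -0.0365 under the stricter filter of 50. The causes were not tested. Marker lists with no member left under the stricter filter have no value there. Depth per library is unknown and limits what can be said of low genes.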

Other observations

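Other heat shock genes were looked up after the rise of Hspa1a and Hspa1b had been seen, so their values are a description. Hsph1, which codes for HSP110, had 9.43, 9.41 and 9.47 at 240 min, then 10.42, 10.58 and 10.33 at 360 min, higher in every library of 360 min (1.01 ± 0.16, adjusted p = 1.3e-05). Dnajb1 (0.67), an HSP40 partner of HSP70, Bag3 (0.63), a co-chaperone, Hspa8 (0.49), the constitutive HSC70, Hsp90ab1 (0.39) and Hsp90aa1 (0.39) were also called higher. Dnaja1 (0.37), Chordc1 (0.36), Hspe1 (0.26), Ahsa1 (0.25) and Hspd1 (0.17) were called higher too, beside 18.6% of all tested genes. Dnajb4 (-0.43) was called lower. Hsf1 (-0.12), the heat shock transcription factor, Hspa4 (0.01), Hspa4l (-0.07) and Stip1 (-0.004) were not called. No heat shock gene looked up had a called difference of the step between the genotypes. The WT step of Hsph1 was 0.86 with all libraries and 1.26 without WT 360 min replicate 1, and that of Hspa1a was 1.05 and 1.55.

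The rise of Cebpa in the step was a small return after a large fall. Cebpa, a myeloid transcription factor gene, had a D310N mean of 10.11 before LPS, 6.04 at 240 min and 6.69 at 360 min, with library values of 5.98, 6.06 and 6.08 at 240 min, then 6.69, 6.52 and 6.86 at 360 min. Its libraries of the 2 times did not overlap, and the later level was still far below the one before LPS.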
